A study of Mus musculus with 8 samples.

Results

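The set held 107 protein-coding genes of the respiratory chain out of the 46078 genes of the count table. A gene was a member where its symbol began with Nduf, Uqcr, Atp5, mt-Nd, mt-Co, mt-Cyt or mt-Atp, where it was Sdha, Sdhb, Sdhc, Sdhd or Cycs, or where Cox was followed by a digit from 4 to 8 and a letter. The rule matched 118 symbols, and the 11 processed pseudogenes among them were dropped. Nuclear genes made up 94 of the members: 38 of complex I, 8 complex I assembly factors with Ndufaf symbols, 4 of complex II, 8 of complex III, cytochrome c (Cycs), 18 of complex IV and 17 of complex V. The other 13 were all the protein genes of mtDNA, 7 for complex I, 1 for complex III, 3 for complex IV and 2 for complex V.

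Complexes I and II take electrons from NADH and succinate, complex III hands them to cytochrome c, and complex IV passes them to oxygen. Complex V is the ATP synthase, driven by the proton gradient. Complex II is built from nuclear genes alone, while the other complexes combine products of both genomes. The mRNAs of mtDNA are cut from long transcripts of its strands, so their levels depend on processing and decay as well as on transcription.

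The libraries came from BV-2 cells, a mouse microglial line kept 4 h without serum, with 2 libraries in each of 4 groups. Control cells received neither LPS nor garlic compounds, while LPS cells received 100 ng/mL of lipopolysaccharide for 20 h. AGE+LPS cells received aged garlic extract at 0.5% by volume from 1 h before LPS, and FruArg+LPS cells received 3 mM FruArg, an arginine derivative found in the extract, on the same schedule. The sample labels place every replicate 1 in lane 3 and every replicate 2 in lane 6. Total counts were 2707500 and 8995052 in control, 8720784 and 12069807 in LPS, 6795464 and 6669072 in AGE+LPS, and 4692715 and 5822113 in FruArg+LPS. Control replicate 1 was the smallest library and LPS replicate 2 the largest.

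The control and LPS labels matched the expression of LPS response genes. Levels are given as CPM, counts scaled to library size with TMM factors, and a gene is called where edgeR gives it a Benjamini-Hochberg adjusted p below 0.05. Calls with and without the lane block are those of edgeR with TMM on the 2 groups compared, unless another fit is named. With the block such a fit leaves little to measure the spread of a single gene. Its adjusted p values therefore rest mainly on the dispersion shared over genes. Il1b stood at 1.56 and 2.44 CPM in control and 573 and 577 in LPS, and Nos2, the inducible nitric oxide synthase, at 2.18 and 0.657 against 759.6 and 809.6. All 6 tested genes of this label check were called higher in LPS by edgeR, with a median log2 fold change of 8.02. In AGE+LPS against LPS, Il1b was called higher (1.54, adjusted p 0.0407), a call lost with length correction (0.0523), and Nos2 was called lower (−2.61, adjusted p 0.0358). The paper lists Il1b among genes repressed by AGE, the opposite direction. No check of the garlic labels by marker genes was made. The microglia and macrophage markers summed to 2560.2 and 2996 CPM in control and 2308 and 2614 in LPS, with Ptprc the most abundant. They summed to 2273 and 2596 CPM in AGE+LPS and 2976 and 2974 in FruArg+LPS. Of the 9 tested markers edgeR called 4 lower in LPS against control: Itgam (−1.08), Trem2 (−1.37), Tyrobp (−0.86) and P2ry12 (−2.23). P2ry12 lost its call without control replicate 2 (−1.89, adjusted p 0.0528), and Tyrobp without control replicate 1 (adjusted p 0.0838) or 2 (0.0862). With the lane as a block 3 were higher and 5 lower, beside 24.9% and 22.9% of all genes. Without the block 14.3% of all genes were lower. The label of the cells thus rests on the sum, while single markers were lower. Astrocyte markers reached at most 1.29 CPM in sum, neuron markers 0.381 and oligodendrocyte markers 1.56.

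In control the nuclear members summed to 14540.5 and 14843.5 CPM, or 1.72% and 1.76% of all counts. The mitochondrially encoded members summed to 1775 and 2865 CPM, or 0.210% and 0.339%. Ranked per kb of exon, mt-Co1, the catalytic subunit of complex IV, led with 1215 CPM per kb in control, ahead of Cox4i1 (567), Atp5a1 (499), Atp5b (446) and Cox8a (445). Atp5a1 and Atp5b encode the alpha and beta subunits of the catalytic head of ATP synthase. The other tested mtDNA genes lay lower, from 143 CPM per kb for mt-Nd1 and 105 for mt-Cytb to 12.5 for mt-Nd2. The assembly factors were near the bottom, with Ndufaf7 at 10.8, Ndufaf3 at 7.72 and Ndufaf4 at 4.44, and Cycs stood at 2.13.

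Most subunit isoform pairs were expressed from 1 gene. Cox4i1 stood at 893 and 865 CPM in control, 979.7 and 822 in LPS, 962 and 849 in AGE+LPS and 1223.5 and 1002.1 in FruArg+LPS, while Cox4i2, its hypoxia and lung isoform, had at most 1 count in any library. Cox6a1 ranged over the 8 libraries from 154 to 288 CPM and the heart and muscle form Cox6a2 from 1.57 to 12.3. Cox6b1 ranged from 109.9 to 181 CPM, and its testis form Cox6b2 had 0 counts, as had Cox7b2, Cox8b, Cox8c and Ndufa4l2. The muscle form Cox7a1 reached at most 7.04 CPM, against 196 to 286 for Cox7a2 and 141 to 308 for Cox7a2l, a factor of supercomplex formation. Of the genes for the c subunit of ATP synthase, Atp5g3 led with 185 to 329 CPM, ahead of Atp5g1 at 5.28 to 13.1 and Atp5g2 at 0.25 to 1.56. The ubiquitous forms therefore carried nearly all of the signal in each group. Ndufa4, named as a complex I subunit and since found in complex IV, was counted with complex I by its symbol.

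Nuclear members were modestly lower in LPS than in control as a whole. Among members with a mean of at least 5 CPM, the assembly factors Ndufaf3, Ndufaf4 and Ndufaf7 had the largest decreases. Cycs was the only member called higher by edgeR without the lane block, at the edge of the threshold. The sums of complexes I, II, III and V were all lower, and complex IV kept most of its level. The sum of the mtDNA genes other than mt-Co1 was lower inside each lane, but no mtDNA gene was called without a lane term.

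Summed CPM of the nuclear members was 14540.5 and 14843.5 in control and 12959 and 11375 in LPS, so both LPS libraries lay below both control libraries. Their mean went from 14692 to 12167 CPM. Their share of counts, which is not scaled by TMM, went from a mean of 1.74% to 1.10%. With library size scaling the median log2 fold change of all genes was −0.40, so part of the drop in share was not particular to members. The ratio of LPS to control within lane 3 and within lane 6 was 0.916 and 0.785 for complex I, 0.743 and 0.648 for complex II, 0.850 and 0.747 for complex III and 0.854 and 0.750 for complex V. Complex IV had ratios of 1.07 and 0.872, which point in opposite directions. The assembly factors had the lowest ratios, 0.563 and 0.574, and the closest match between lanes, though only 3 of the 8 were called. Complex II, whose 4 genes are all nuclear, stood at 1560.4 and 1637 CPM in control and 1159 and 1061 in LPS. These sums carry no test, since they are scores over chosen genes.

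**Figure D1:**
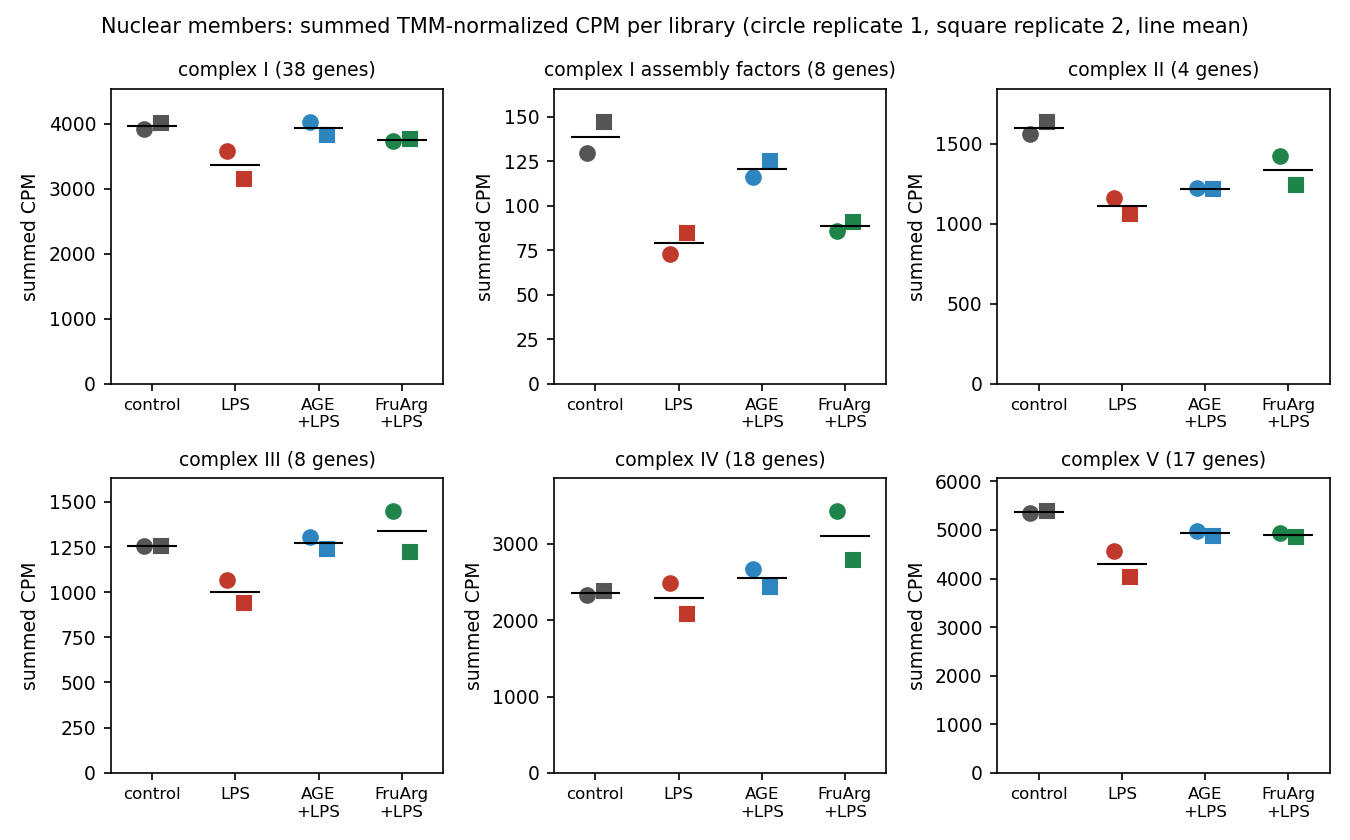
Summed TMM-normalized CPM of the nuclear members by complex in each library. Complex I assembly factors stood at 129.7 and 147 CPM in control, 73.0 and 84.5 in LPS, 116 and 125 in AGE+LPS and 85.9 and 90.8 in FruArg+LPS.

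edgeR called 1 of the 95 tested members higher (1.05%) and 12 lower (12.6%) at a Benjamini-Hochberg adjusted p below 0.05, where 16.3% of all 12888 tested genes were higher and 14.3% lower. By share and without the lane block, members were thus rarely higher and about as often lower as other genes. Once the lane was fitted, as given below, their share of lower genes was above that of all genes. The DEG rule, which also asks for a log2 fold change of 1 or more in size, was met by 5 members, against 22.6% of all genes. A log2 fold change below 0 was found in 80 of the 95 members and in 6330 of all genes tested, and the median was −0.27 for nuclear members and 0.02 for all genes. Both LPS values lay below both control values in 52 of the 107 members and above them in 3, against 4451 and 4071 of the 12888 tested genes. The 107 include members that were not tested, and untested mt-Nd4l is counted in the 52. Most members thus pointed down by small amounts, and few passed the test on 2 libraries a group. DESeq2 called 0 of 99 members higher and 9 lower, against 8.76% and 6.58% of the 21997 genes with any count. That set takes in many genes with few counts, so shares of DESeq2 here and below are not on the footing of those of edgeR. An excess of members over them is not read as a result. At an unadjusted p below 0.05 there were 25 members. Counts at an unadjusted p stand here and below without the share of all genes, so they are not read as results about members. With the replicate number, and so the lane, as a block in the fit the counts became 3 higher (3.16%) and 35 lower (36.8%), against 24.9% and 22.9% of all genes, with 5 members under the DEG rule against 25.5% of all genes. The counts moved when single libraries were left out, as given under the dependence on the processing. The median of nuclear members then ranged from −0.34 without LPS replicate 1 to −0.21 without control replicate 2.

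**Figure D2:**
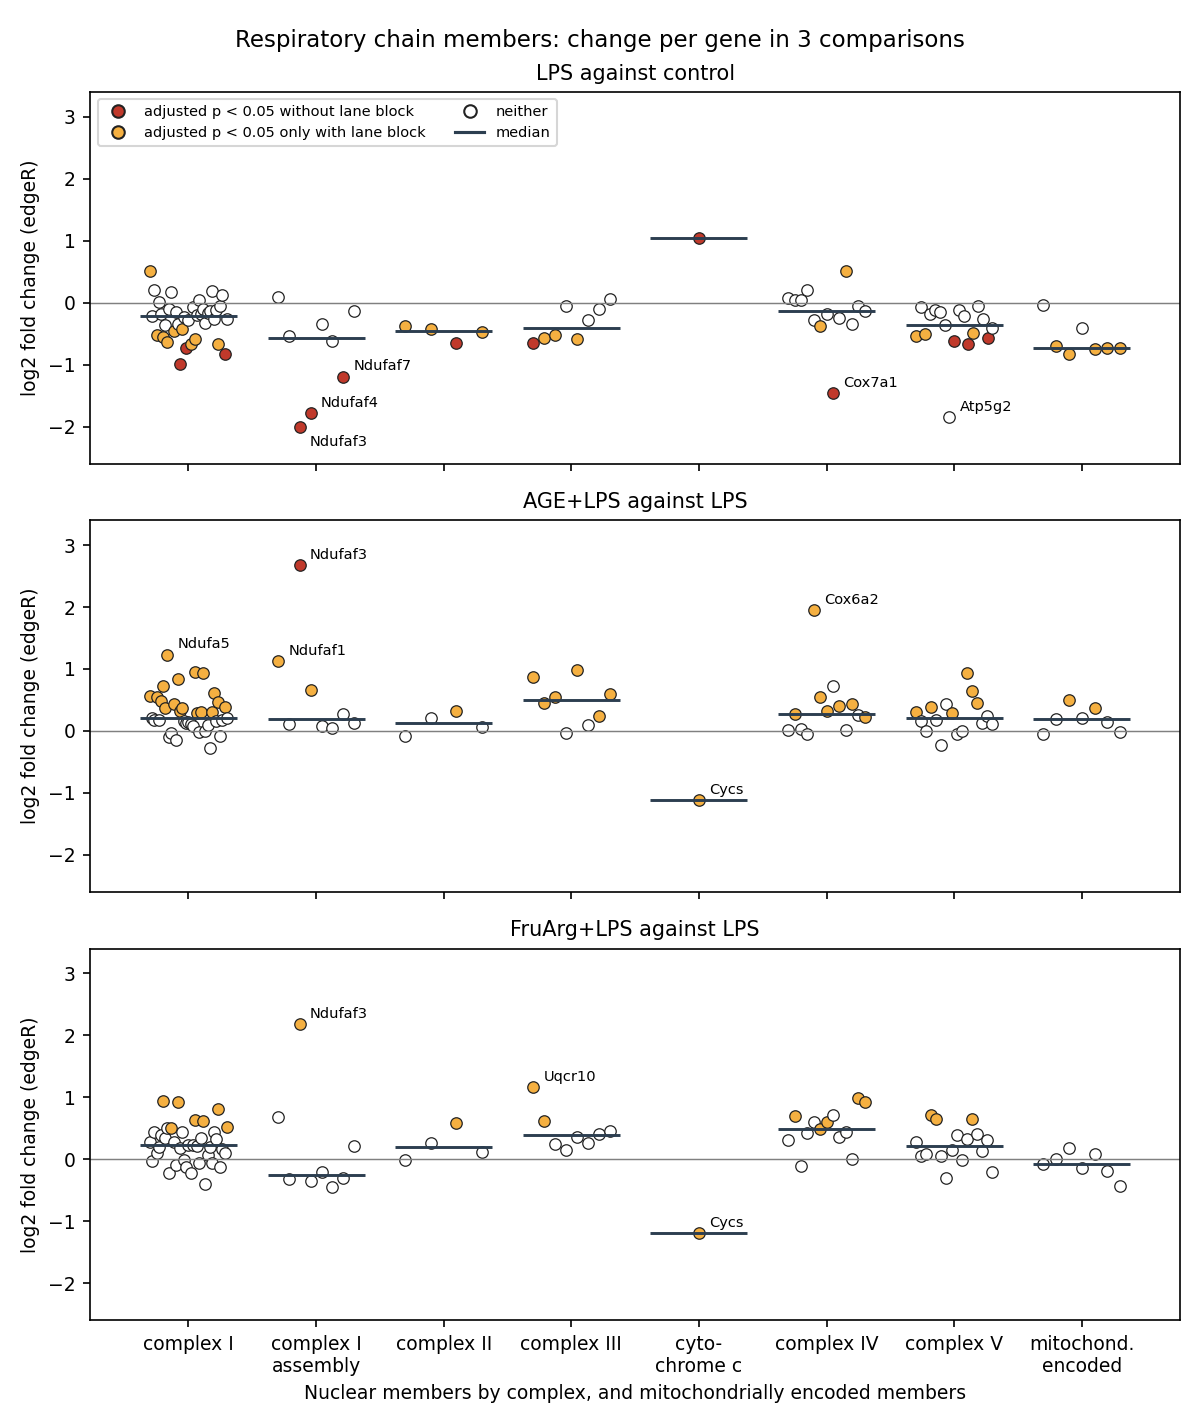
Log2 fold change of every tested member by complex in 3 comparisons. Against control, LPS had medians of −0.58 for complex I assembly factors and −0.72 for mitochondrially encoded members.

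The 3 largest decreases by fold change among members with a mean of at least 5 CPM were complex I assembly factors. Cox7a1 (−1.46) and Atp5g2 (−1.85) had lower means and are left out of this ranking. Ndufaf3 stood at 17.2 and 10.9 CPM in control and 4.13 and 2.58 in LPS, and Ndufaf4, its partner in an early assembly step, at 15.9 and 18.8 against 5.38 and 4.51. Ndufaf7, a mitochondrial methyltransferase, stood at 35.5 and 39.9 in control and 14.3 and 17.9 in LPS. In each of these genes every LPS library lay below every control library. Log2 fold changes by edgeR were −2.01 (SE 0.40, adjusted p 0.00463) for Ndufaf3, −1.79 (SE 0.30, adjusted p 0.00202) for Ndufaf4 and −1.19 (SE 0.24, adjusted p 0.0051) for Ndufaf7. All 3 kept their calls in every alternative fit, including each fit without 1 library. The other factors had smaller values, such as −0.35 for Ndufaf5 and 0.09 for Ndufaf1. Raw counts of Ndufaf3 were 55 and 116 in control and 33 and 28 in LPS, far above the floor of 3 counts.

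Within complex I itself 3 of 37 tested subunits (8.11%) were called lower, below the 14.3% of all genes, and these were named after their values were seen. Ndufb10, a subunit of the membrane arm, stood at 96.7 and 119 CPM in control and 51.7 and 54.1 in LPS. Ndufv2, which holds an iron-sulfur cluster of the NADH-oxidizing tip, stood at 99.2 and 133 against 58.7 and 68.9, and the membrane-arm subunit Ndufb3 at 89.8 and 101 against 47 and 65.4. The LPS values lay below the control values in all 3 genes, as in 4451 of the 12888 tested genes. Their log2 fold changes were −0.996 (adjusted p 0.00573), −0.83 (adjusted p 0.0191) and −0.73 (adjusted p 0.0365). Without control replicate 2 all 3 lost the call, at adjusted p values of 0.0992, 0.279 and 0.241. Ndufb3 lost it also without control replicate 1 (0.113) and without LPS replicate 1 (0.0843). With the lane block 11 of the 37 were lower (29.7%, against 22.9% of all genes), among them Ndufb5 (−0.67) and Ndufs7 (−0.70). Ndufa1, an accessory subunit of the membrane arm, was called higher only with the block (0.53, adjusted p 0.00812), at 73.3 and 59.5 CPM in control and 92.5 and 91.8 in LPS.

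All 4 genes of complex II were lower in both LPS libraries than in either control library, as were 4451 of the 12888 tested genes. Sdhc, a membrane anchor of the complex, stood at 509.8 and 552 CPM in control and 354 and 309 in LPS, and the other anchor Sdhd at 243 and 274 against 179 and 183. Sdha, the flavoprotein, stood at 449.98 and 457 against 355 and 323, and Sdhb, the iron-sulfur subunit, at 358 and 353 against 271 and 245. No library crossed over between the groups in any of these genes. Only Sdhc passed edgeR without the block, with a log2 fold change of −0.65 (SE 0.20, adjusted p 0.0391). It lost the call without control replicate 1 (adjusted p 0.188), control replicate 2 (0.284) or LPS replicate 2 (0.0875). With the block all 4 were called, at −0.65 for Sdhc, −0.48 for Sdhd (adjusted p 0.0087), −0.43 for Sdhb (0.0161) and −0.39 for Sdha (0.0304). Beside these 4 calls, the block called 22.9% of all genes lower.

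In complex III, Uqcr10, a small subunit, stood at 198 and 166 CPM in control and 123 and 103 in LPS. The groups did not overlap, and its log2 fold change was −0.65 (SE 0.21, adjusted p 0.0401). This call was lost without control replicate 1 (adjusted p 0.352), control replicate 2 (0.12) or LPS replicate 2 (0.0852). Uqcrc2, a core protein, stood at 136 and 144 against 75.8 and 105 and was called only with the block (−0.60, adjusted p 0.00214). Its partner Uqcrc1 had 327 and 348 against 370.3 and 263, so the LPS values fell on both sides of the control values. The difference between the 2 core proteins was not tested.

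Cycs encodes cytochrome c, the soluble carrier between complexes III and IV. It stood at 4.68 and 9.85 CPM in control and 15.4 and 15.6 in LPS, with both LPS libraries above both controls. The control libraries differed more than the LPS libraries did. The log2 fold change was 1.04 (SE 0.35, adjusted p 0.0494), just inside the threshold. Without control replicate 1 it was 0.69 and not called (adjusted p 0.326), and DESeq2 gave an adjusted p of 0.0737. With the block it was 1.07 (adjusted p 0.00199). In both garlic groups Cycs lay near control, at 4.72 and 9.56 CPM in AGE+LPS and 7.35 and 6.09 in FruArg+LPS.

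In complex IV only Cox7a1 was called, from 4.99 and 7.04 CPM in control to 2.25 and 2.12 in LPS. Both LPS values were below both control values, and the log2 fold change by edgeR was −1.46 (SE 0.42, adjusted p 0.0269). DESeq2 gave −1.43 and no call (adjusted p 0.0959). The edgeR call was lost without control replicate 2, at −1.17. Counts of Cox7a1 were 16 and 75 in control and 18 and 23 in LPS. Cox7a1 is a minor transcript here, so it hardly touched the sum of complex IV. Among the abundant genes Cox4i1 had a log2 fold change of 0.07 (adjusted p 0.833) and Cox6a1 0.21 (adjusted p 0.506). Cox7a2l stood at 141 and 150.03 CPM in control and 240.2 and 165 in LPS and was called higher only with the block (0.48, adjusted p 0.014). Cox6b1 stood at 165 and 153 against 129 and 109.9 and was called lower only with the block (−0.38, adjusted p 0.039).

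All 17 tested genes of complex V had a log2 fold change below 0, and 3 were called lower without the block (17.6%, against 14.3% of all genes). Atp5j2, a membrane-domain subunit, stood at 84.5 and 81.3 CPM in control and 47.5 and 54.7 in LPS. Atp5g3, the main gene of the proton-carrying c ring, stood at 287 and 329 against 185 and 207. Atp5o, a stalk subunit named after its values were seen, stood at 137 and 149 against 91.2 and 95.6. None of the 3 overlapped between groups, and 4451 of the 12888 tested genes lay below control in the same way. The 3 genes had log2 fold changes of −0.66 (adjusted p 0.0345), −0.61 (0.0432) and −0.58 (0.0469). All 3 calls were lost when single libraries were left out. Without control replicate 1 the adjusted p values were 0.248, 0.174 and 0.231, without control replicate 2 they were 0.197, 0.361 and 0.366, and without LPS replicate 1 they were 0.0556, 0.0947 and 0.0692. Of the catalytic genes, Atp5a1 stood at 1610.3 and 1518 CPM in control and 1125 and 977 in LPS and was called with the block only (−0.54, adjusted p 0.00304), while Atp5b had a log2 fold change of −0.06 (adjusted p 0.868). The difference between these 2 genes was not tested. Atp5c1 (−0.51, adjusted p 0.00522) and Atp5k (−0.48, adjusted p 0.0173) were also called with the block only. The block kept the calls of Atp5j2, Atp5g3 and Atp5o, and it called 22.9% of all genes lower.

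**Figure D3:**
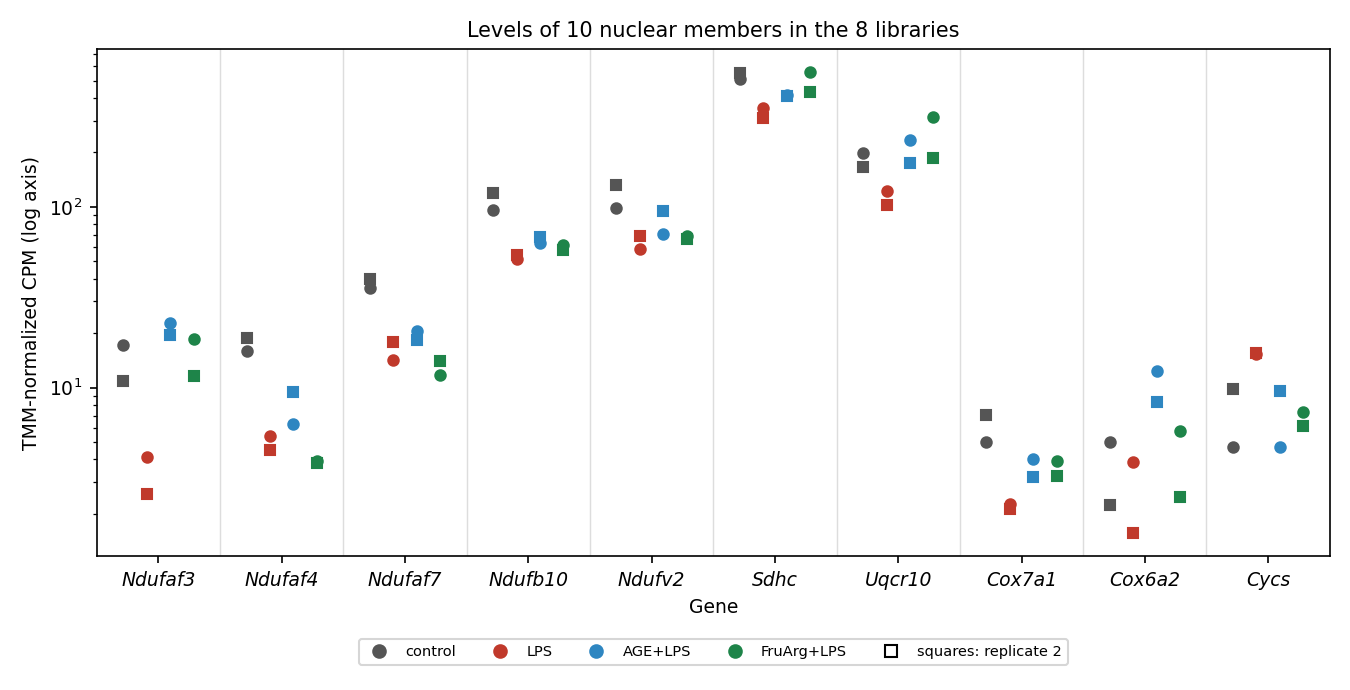
Levels of 10 nuclear members in the 8 libraries on a log axis. Ndufaf3 went from 17.2 and 10.9 CPM in control to 4.13 and 2.58 in LPS and stood at 22.9 and 19.4 in AGE+LPS.

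The summed mtDNA members, most of them mt-Co1, differed more between lanes than between treatments. Their sum was 1775 CPM in control replicate 1 and 2865 in control replicate 2, 1419 and 2667 in LPS, 1303 and 2759 in AGE+LPS, and 1589 and 2295 in FruArg+LPS. The lane 6 library was above the lane 3 library in every group, by ratios of 1.61, 1.88, 2.12 and 1.44, where the nuclear members had 1.02, 0.878, 0.958 and 0.926. The 2 mitochondrial rRNA genes showed the same order with larger ratios of 2.52, 3.79, 4.02 and 3.23. The 22 mitochondrial tRNA genes did not, with 0.692, 1.04, 1.42 and 0.685. They held 3.79% and 2.62% of counts in control. The paper's libraries were made with poly-A selection, and how it captured the rRNA, tRNA and mRNA of mtDNA was not tested. A difference between lanes sits on lane and replicate at once, and these cannot be told apart.

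mt-Co1 made up most of the sum, at 1421 and 2335 CPM in control and 1254 and 2314 in LPS. Its log2 fold change was −0.04 (adjusted p 0.948), and −0.06 with the block (adjusted p 0.766). The other mtDNA members summed to 354 and 529.7 CPM in control and 165 and 353 in LPS, within-lane ratios of 0.465 and 0.665. The sum without mt-Co1 thus lay lower in LPS inside each lane, and its difference from mt-Co1 was not tested. mt-Nd1 stood at 102 and 172 CPM in control and 45.7 and 105 in LPS, and mt-Cytb, the only mtDNA gene of complex III, at 93.2 and 148 against 44.1 and 100.5. mt-Nd4 stood at 33.7 and 51.4 against 14.7 and 35.2, and mt-Nd5 at 97.3 and 117 against 46.3 and 80.3. mt-Nd6, encoded on the opposite strand, stood at 18.1 and 24.8 against 7.39 and 18. In each gene LPS lay below control inside each lane, while the lane 6 LPS library of mt-Nd1, mt-Nd4 and mt-Cytb lay above the lane 3 control.

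Without the block edgeR called 0 of the 7 tested mtDNA genes in LPS against control, with 1 at an unadjusted p below 0.05, and DESeq2 called 0 as well. With the block it called 5 of 7 lower (71.4%), against 22.9% of all genes. The log2 fold changes with the block were −0.88 for mt-Nd1 (adjusted p 3.56e-05), −0.78 for mt-Nd4 (0.00144), −0.76 for mt-Cytb (0.000315), −0.75 for mt-Nd5 (0.000358) and −0.75 for mt-Nd6 (0.0108). mt-Nd2, at 9.67 and 16.2 CPM in control and 6.51 and 12.9 in LPS, was not called either way (−0.38 with the block, adjusted p 0.243). The lane term therefore decided every call in this genome. The median of the 7 genes was −0.72 without the block and ranged from −1.42 without LPS replicate 2 to −0.24 without LPS replicate 1.

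**Figure D4:**
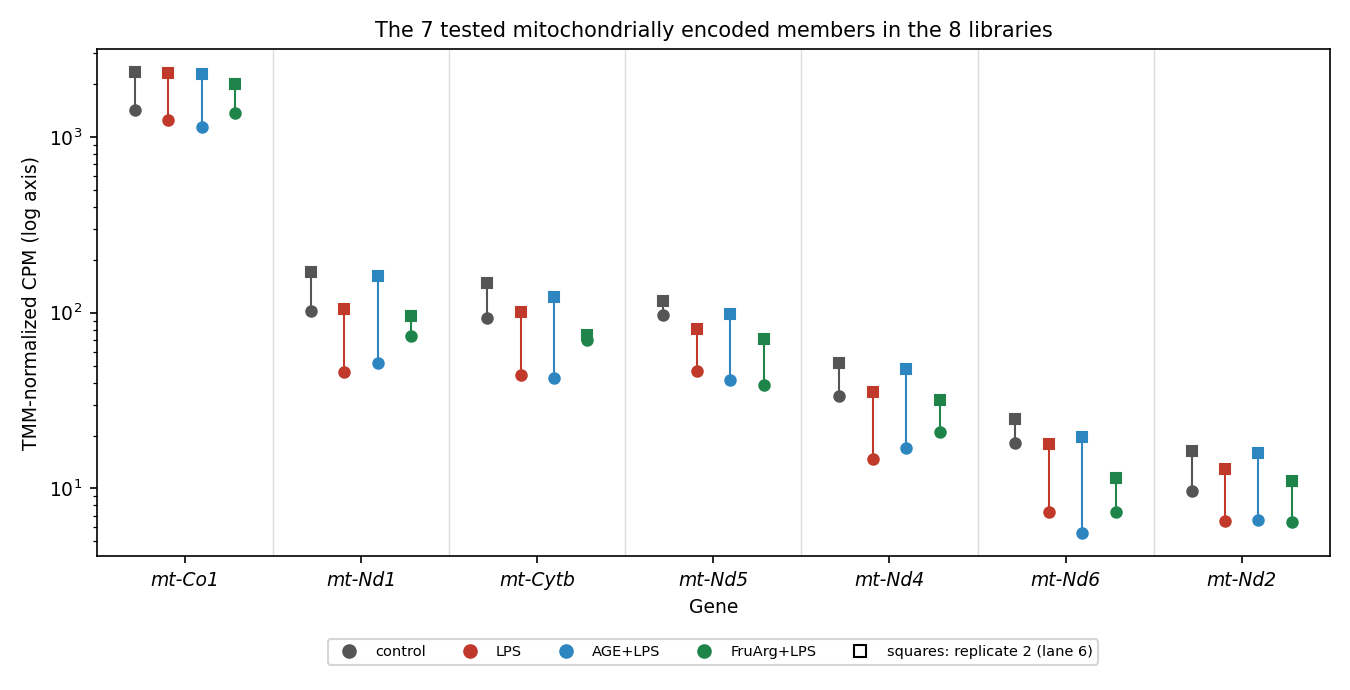
The 7 tested mitochondrially encoded members in the 8 libraries, with the replicates of a group joined. In every group mt-Co1 was higher in lane 6, for example 1254 CPM in LPS replicate 1 and 2314 in LPS replicate 2.

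Only 7 of the 13 mtDNA members could be tested. mt-Atp6 and mt-Atp8 had 0 counts in every library, and mt-Co2, mt-Co3, mt-Nd3 and mt-Nd4l had at most 10. A copy of this stretch of mtDNA lies on chromosome 1, from 24611535 to 24616197 of GRCm38. Of the 100-nt windows of mt-Atp6, mt-Co2 and mt-Co3, 99.5%, 99.5% and 99.9% also occur elsewhere in the genome's annotated genes, and 97.6% and 98.5% of those of mt-Nd3 and mt-Nd4l. The pseudogene Gm28438, which shares the windows of mt-Nd3, held 97 to 1731 counts, while most of the other copies held few or none. How reads were divided between the copies was not tested. mt-Co1 shared 30.8% of its windows and mt-Nd4 60.8%, so their counts may be partial. mt-Atp8 shared no window with another annotated gene and still had 0 counts, and a cause for this was not tested. The windows were sought in annotated transcripts only, so this does not show that mt-Atp8 is absent from the chromosome 1 copy. Complex V is therefore described here from its nuclear genes alone.

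AGE+LPS had higher nuclear members than LPS, by a small amount in most genes. Ndufaf3 was the only member called by edgeR in the pairwise fit without the lane block. Several genes lower in LPS lay near their control level again, while Ndufaf4 and Ndufaf7 stood below theirs. Against LPS, the pairwise fits called Ndufaf4 only with the block and Ndufaf7 not at all. The comparisons of LPS with control and of FruArg+LPS with LPS share these LPS libraries, so the results are not independent of each other. Low values of a gene in these LPS libraries lower it against control and raise both garlic groups against LPS. A return toward control is thus partly built in for genes picked as lower in LPS.

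The nuclear sum stood at 12959 and 11375 CPM in LPS and 14336 and 13727 in AGE+LPS, with both AGE+LPS libraries above both LPS libraries. Ratios of AGE+LPS to LPS in lane 3 and lane 6 were 1.12 and 1.22 for complex I, 1.22 and 1.32 for complex III and 1.09 and 1.21 for complex V. They were 1.06 and 1.14 for complex II, 1.07 and 1.17 for complex IV and 1.59 and 1.48 for the assembly factors. Every complex had ratios above 1 in both lanes. Complex II had the smallest ratios and stood at 1223 and 1214 CPM, below its control values of 1560.4 and 1637. The median log2 fold change was 0.24 for nuclear members and −0.00 for all 12317 genes tested, and 80 of 94 tested members were above 0.

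edgeR called 1 member higher (1.06%) and 0 lower, against 0.292% and 0.503% of all genes. DESeq2 called 6 of 99 members higher and 0 lower, against 1.11% and 1.72% of the 21850 genes with any count. At an unadjusted p below 0.05 there were 16 members. With the block 43 members were higher (45.7%) and 1 lower (1.06%), against 19.3% and 21.0% of all genes, and 5 members met the DEG rule against 9.73% of all genes. The members thus leaned to the higher side more than all genes did once the lane was fitted. The block in a fit of the 4 groups gave fewer calls, 17 members higher against 8.44% of all genes. By complex the block called 18 of 37 genes of complex I higher, 3 of 8 assembly factors, 1 of 4 of complex II, 6 of 8 of complex III, 7 of 13 of complex IV and 6 of 16 of complex V. Leaving out single libraries moved the counts, as given under the dependence on the processing. The median of nuclear members then ranged from 0.22 without LPS replicate 2 to 0.31 without LPS replicate 1.

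Ndufaf3 stood at 4.13 and 2.58 CPM in LPS and 22.9 and 19.4 in AGE+LPS, above its control values of 17.2 and 10.9. Both AGE+LPS libraries lay above all 4 libraries of control and LPS. Its log2 fold change was 2.67 (SE 0.34, adjusted p 0.0389), and without 1 library it stayed between 2.35 and 3.03 and was called each time. Ndufaf4 stood at 6.29 and 9.41 CPM (0.67, adjusted p 0.399) and Ndufaf7 at 20.4 and 18.4 (0.27, adjusted p 0.648), both below control. Of the assembly factors lowest in LPS, 1 thus stood above its control level in AGE+LPS and 2 below theirs. Ndufaf1, another factor, stood at 8.77 and 16.8 CPM in LPS and 22.2 and 33.8 in AGE+LPS. It had 1.12 without the block (adjusted p 0.188) and 1.15 with it (adjusted p 1.06e-08).

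In the pairwise edgeR fits further members were called with the block and not without it. Uqcrc2 stood at 75.8 and 105 CPM in LPS and 163 and 192 in AGE+LPS, above its control values of 136 and 144, with 0.98 (adjusted p 0.0987) without the block and 0.99 (adjusted p 8.17e-15) with it. Atp5j2 went from 47.5 and 54.7 to 91.6 and 104 (0.94, adjusted p 0.0824) and Uqcr10 from 123 and 103 to 236 and 175 (0.87, adjusted p 0.122). All 3 had been lower in LPS than in control, a comparison that used the same LPS libraries. In complex I Ndufb7 went from 67.4 and 48.6 to 123 and 100.3 (0.95, adjusted p 0.116) and Ndufc2 from 76.4 and 78.6 to 154 and 141 (0.93, adjusted p 0.0731). Ndufa5 stood at 6.64 and 12.7 in LPS and 18.2 and 27.6 in AGE+LPS, with 1.23 (adjusted p 0.164) without the block and 1.26 (adjusted p 8.79e-09) with it. In these 6 genes the AGE+LPS libraries lay above the LPS libraries, as in 2955 of the 12317 tested genes.

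Cox6a2 stood at 4.99 and 2.25 CPM in control, 3.88 and 1.57 in LPS, 12.3 and 8.35 in AGE+LPS and 5.74 and 2.48 in FruArg+LPS. Only the AGE+LPS libraries were above all others, with a log2 fold change over LPS of 1.95 (adjusted p 0.109), or 1.98 with the block (adjusted p 1.14e-08). Its exons overlap another annotated gene over 10.3% of their bases, as do those of Uqcrc2 over 19.7% and of Atp5o over 47.9%. Cycs shares 24.7% of its 100-nt windows with other genes, so its level may be counted in part. Cycs was the only member called lower with the block, at 15.4 and 15.6 CPM in LPS and 4.72 and 9.56 in AGE+LPS (−1.13, adjusted p 7.94e-06), and was not called without it (−1.12, adjusted p 0.188). Of complex II only Sdhc was called with the block (0.32, adjusted p 0.00435), and Sdha had −0.08 (adjusted p 0.888).

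The mtDNA genes were not called in AGE+LPS against LPS without the block, with 0 of 7 at an unadjusted p below 0.05 by edgeR and 0 called by DESeq2. With the block mt-Nd1 was higher (0.44, adjusted p 0.000506) and mt-Nd4 was higher (0.36, adjusted p 0.0446). mt-Nd1 stood at 52 and 162 CPM in AGE+LPS against 45.7 and 105 in LPS, so most of its difference came from lane 6. With AGE+LPS replicate 2 left out mt-Nd1 had −0.53 and mt-Nd4 −0.55, opposite in sign to their values of 0.51 and 0.38 from all libraries.

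FruArg+LPS also had higher nuclear members than LPS, with complexes III and IV furthest up. No member was called by edgeR in the pairwise fit without the lane block, and DESeq2 called 2. Of the assembly factors lower in LPS, Ndufaf3 was high again and Ndufaf4 and Ndufaf7 were not, and the mtDNA genes showed no common direction.

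The nuclear sum was 15084 and 13970.5 CPM, above both LPS libraries at 12959 and 11375. Ratios of FruArg+LPS to LPS in lane 3 and lane 6 were 1.38 and 1.34 for complex IV, 1.36 and 1.30 for complex III, 1.23 and 1.17 for complex II, 1.04 and 1.19 for complex I and 1.08 and 1.20 for complex V. Complex IV reached 3433 and 2789 CPM, above its control values of 2325 and 2390. It was the only complex of this group with both libraries above both controls, and it was also the complex with the smallest difference between LPS and control. The median log2 fold change was 0.27 for nuclear members, 0.50 for complex IV and −0.01 for all 12071 genes tested.

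edgeR called 0 members higher and 0 lower, and 0% and 0% of all genes, with 16 members at an unadjusted p below 0.05. DESeq2 called 2 of 98 members higher and 0 lower, against 0.465% and 0.516% of the 21303 genes with any count. With the block 19 members were higher (20.2%) and 1 lower (1.06%), against 8.23% and 9.36% of all genes, and 3 members met the DEG rule against 6.35% of all genes. The lane term thus made the difference between no call and 20 in this comparison. Leaving out FruArg+LPS replicate 2 gave 6 of 94 members higher, beside 4.92% of all genes, and leaving out LPS replicate 1 gave 1, beside 0.495%.

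The largest increases were those of Ndufaf3 and Uqcr10. Ndufaf3 stood at 18.6 and 11.6 CPM in FruArg+LPS against 4.13 and 2.58 in LPS, near its control values of 17.2 and 10.9. Uqcr10 stood at 315 and 187 against 123 and 103. Each gene had its higher FruArg+LPS value in lane 3. Without the block the log2 fold changes were 2.18 (SE 0.46, adjusted p 0.192) and 1.16 (adjusted p 0.213), and with it 2.17 (adjusted p 1.72e-05) and 1.12 (adjusted p 1.24e-06). Ndufaf4 stood at 3.9 and 3.81 CPM (−0.35, adjusted p 0.782) and Ndufaf7 at 11.7 and 14.1 (−0.31, adjusted p 0.692). Neither was called with or without the block. Ndufaf1 stood at 23.2 and 18.1 CPM, above its LPS values of 8.77 and 16.8 (0.69, adjusted p 0.453). The sum of the 8 factors had ratios of 1.18 and 1.07 in the lanes.

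In complex IV the block called Cox7c, Cox8a, Cox5a, Cox6c and Cox6b1 higher. Cox8a stood at 298 and 193 CPM in LPS and 579 and 344 in FruArg+LPS, and Cox7c, another small subunit, at 45.1 and 38 against 111 and 53.9. Both genes had the larger step in lane 3. Their log2 fold changes with the block were 0.90 (adjusted p 0.000118) and 0.91 (adjusted p 0.000408), and without it 0.92 (adjusted p 0.319) and 0.99 (adjusted p 0.317). In complex I the block called 7 genes, led by Ndufa3 (0.93) and Ndufab1 (0.92), the acyl carrier protein. Sdhc of complex II stood at 556 and 435 CPM, with a log2 fold change over LPS of 0.58 with the block (adjusted p 0.0179). Cycs was lower with the block only, at 7.35 and 6.09 CPM against 15.4 and 15.6 (−1.20, adjusted p 0.00691).

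In FruArg+LPS against LPS edgeR called 0 of the 7 mtDNA genes without the block and 0 with it, with 0 at an unadjusted p below 0.05, and DESeq2 called 0. Their median log2 fold change was −0.08, and ran from −0.49 without LPS replicate 1 to 0.43 without LPS replicate 2. mt-Nd5 stood at 39 and 71 CPM in FruArg+LPS and 46.3 and 80.3 in LPS, well under its control values of 97.3 and 117. mt-Nd2 and mt-Nd6 were likewise not above LPS in either lane, at 6.43 and 11 CPM against 6.51 and 12.9 and at 7.35 and 11.4 against 7.39 and 18. Others went different ways in the lanes, with mt-Nd1 at 74.2 and 95.4 against 45.7 and 105 and mt-Cytb at 69.8 and 74.3 against 44.1 and 100.5. The mtDNA members without mt-Co1 had ratios of FruArg+LPS to LPS of 1.32 in lane 3 and 0.839 in lane 6, so the direction differed between lanes.

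FruArg+LPS and AGE+LPS had similar nuclear sums, while single complexes lay apart in opposite directions. Complex IV stood at 3433 and 2789 CPM in FruArg+LPS and 2666 and 2431 in AGE+LPS, and the assembly factors at 85.9 and 90.8 against 116 and 125. The nuclear sums were 15084 and 13970.5 CPM against 14336 and 13727, so the groups overlapped, and the median was −0.04 for nuclear members. edgeR called 0 higher and 0 lower, with 0% and 0% of all 11915 genes, 2 members at an unadjusted p below 0.05 and 0 called by DESeq2. With the block Cox7c (0.68, adjusted p 0.0487) and Cox8a (0.65, adjusted p 0.0346) were higher, 2.13% of tested members, and Uqcrc2 was lower (−0.64, adjusted p 0.0344), or 1.06%. Among all genes the block called 2.23% higher and 0.965% lower. Uqcrc2 stood at 96.7 and 135 CPM in FruArg+LPS and 163 and 192 in AGE+LPS. The largest differences not called were Cox6a2 (−1.35, adjusted p 0.837) and Ndufaf4 (−1.03, adjusted p 0.837), both lower in FruArg+LPS.

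Genes that build the complexes but carry other symbols were counted as a list, assembly factors and Cyc1. In LPS against control edgeR called 4 higher and 4 lower of 39 tested, 10.3% each against 16.3% and 14.3% of all genes. With the block there were 5 and 11, 12.8% and 28.2% against 24.9% and 22.9%. Of the calls without the block, those of Acad9, Cox17, Foxred1, Bcs1l, Sdhaf4 and Tmem70 were lost when either control replicate was left out. Coa5, an assembly factor of complex IV, stood at 261 and 269 CPM in control, 551 and 563 in LPS, 260.3 and 284 in AGE+LPS and 333 and 355 in FruArg+LPS. Its LPS values were above all others (1.11 over control, adjusted p 0.00287). Uqcc3, an assembly factor of complex III, ran the other way, at 26.2 and 11.4 in control, 4.76 and 4.24 in LPS, 19 and 17.9 in AGE+LPS and 11.9 and 7.43 in FruArg+LPS. Its log2 fold change was −1.97 in LPS against control (adjusted p 0.00713) and 2.04 in AGE+LPS against LPS (adjusted p 0.0407), the only call of the list there, lost with length correction (adjusted p 0.0523). Like Ndufaf3 it was lowest in LPS. Cyc1, the cytochrome of complex III that the symbol rule leaves out, had −0.56 in LPS against control (adjusted p 0.0832) and was called with the block (−0.58, adjusted p 0.00371).

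Mitochondrial ribosomal proteins, which translate the mtDNA mRNAs, had a median of −0.25 in LPS against control. edgeR called 4 higher and 15 lower of 77 tested, 5.19% and 19.5% against 16.3% and 14.3% of all genes. The block called 8 and 24, 10.4% and 31.2% against 24.9% and 22.9%. Many calls without the block were lost when 1 control library was left out. Mrpl10, Mrpl28, Mrps23 and Mrpl54, for example, lost theirs without either control replicate. Mrpl42 fell most, from 37.4 and 43 CPM to 10.4 and 12.9 (−1.75), and Mrpl52 rose most (1.45). Genes of mtDNA transcription and replication and the nuclear coactivators had a median of 0.09, with 2 of 21 called higher (9.52%, against 16.3% of all genes), led by Mterf4 (0.79, adjusted p 0.0232). The block called 5 higher and 3 lower, 23.8% and 14.3% against 24.9% and 22.9% of all genes. Mterf4 lost its call without control replicate 1 (adjusted p 0.256) or control replicate 2 (0.117). Tfam, which packages mtDNA and starts its transcription, had 0.27, Ppargc1b 0.08, and Ppargc1a had 0 counts. These lists were not tested against the members or each other.

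Carriers, inhibitors and entry points of electrons had 4 genes called higher and 3 lower of 21 in LPS against control, 19% and 14.3%, close to the 16.3% and 14.3% of all genes. With the block there were 5 and 9, 23.8% and 42.9% against 24.9% and 22.9%. AA467197, the mouse NMES1 gene and a paralog of Ndufa4, stood at 0.312 and 0.657 CPM in control, 32.8 and 64.2 in LPS, 15.7 and 12.7 in AGE+LPS and 4.59 and 12 in FruArg+LPS. Its log2 fold change was 6.42 (adjusted p 4.29e-05), where Ndufa4 itself had −0.35 (adjusted p 0.19). The control values of AA467197 were near the floor of counting. Dhodh, which feeds electrons from pyrimidine synthesis into the chain, had −1.50 (adjusted p 0.00536), from 22.8 and 18.1 CPM to 8.14 and 5.89. Ucp2, an inner membrane carrier, had −1.36 (adjusted p 0.00498), from 47.1 and 44.5 to 21.5 and 13.4. Against LPS the block called 6 of 21 higher and 3 lower in AGE+LPS, 28.6% and 14.3% against 19.3% and 21.0% of all genes. In FruArg+LPS it called 3 and 2, 14.3% and 9.52% against 8.23% and 9.36%.

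Of the nuclear members 77 had promoters in the RefSeq set of GRCm38.p6, 82 promoters in all. GCATGCGC, the core of the NRF1 site, read on both strands, was in 13 of them (15.9%), against 2.71% of all 32851 promoters. CCGGAAG, the core of the ETS and GABP site, was in 18 (22%), against 8.86%. These letters are thus more frequent in the promoters of members than in promoters at large. Among the 28 promoters of nuclear members called lower in LPS with the block, 17.9% held the first and 21.4% the second. These 28 are part of the 82, and their difference from the other members was not tested. A match describes the letters only and does not show binding.

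The promoters of the nuclear members that met the DEG rule without the block in LPS against control are shown, with GCATGCGC on either strand in capitals. Ndufaf3 and Ndufaf4 lie at chr9:108567387-108567686 on the minus strand and chr4:24897833-24898132 on the plus strand. Ndufaf7, Cox7a1 and Cycs lie at chr17:78936885-78937184 (plus), chr7:30183921-30184220 (plus) and chr6:50566520-50566819 (minus). Ndufaf4 and Cycs hold the motif and the other 3 do not.
Ndufaf3: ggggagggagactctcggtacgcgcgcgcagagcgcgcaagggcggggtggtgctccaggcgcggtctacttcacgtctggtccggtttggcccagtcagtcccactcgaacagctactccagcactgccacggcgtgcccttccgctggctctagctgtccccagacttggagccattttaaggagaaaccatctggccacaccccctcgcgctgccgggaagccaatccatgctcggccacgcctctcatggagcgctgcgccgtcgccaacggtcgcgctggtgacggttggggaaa
Ndufaf4: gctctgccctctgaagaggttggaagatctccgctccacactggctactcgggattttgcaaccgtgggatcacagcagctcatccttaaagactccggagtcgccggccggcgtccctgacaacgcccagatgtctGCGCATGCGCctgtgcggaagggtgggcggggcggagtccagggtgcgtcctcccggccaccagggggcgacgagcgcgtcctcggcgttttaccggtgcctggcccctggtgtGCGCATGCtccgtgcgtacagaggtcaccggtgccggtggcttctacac
Ndufaf7: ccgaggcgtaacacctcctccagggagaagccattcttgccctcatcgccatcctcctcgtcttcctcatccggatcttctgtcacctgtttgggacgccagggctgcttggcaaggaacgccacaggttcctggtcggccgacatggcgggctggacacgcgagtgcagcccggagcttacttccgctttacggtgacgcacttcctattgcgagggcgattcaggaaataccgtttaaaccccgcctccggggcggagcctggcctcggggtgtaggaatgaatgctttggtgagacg
Cox7a1: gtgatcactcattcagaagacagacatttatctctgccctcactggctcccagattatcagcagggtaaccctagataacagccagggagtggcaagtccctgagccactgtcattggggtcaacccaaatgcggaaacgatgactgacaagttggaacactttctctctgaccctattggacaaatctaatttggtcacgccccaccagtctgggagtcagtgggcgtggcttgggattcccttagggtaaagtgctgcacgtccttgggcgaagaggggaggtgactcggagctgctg
Cycs: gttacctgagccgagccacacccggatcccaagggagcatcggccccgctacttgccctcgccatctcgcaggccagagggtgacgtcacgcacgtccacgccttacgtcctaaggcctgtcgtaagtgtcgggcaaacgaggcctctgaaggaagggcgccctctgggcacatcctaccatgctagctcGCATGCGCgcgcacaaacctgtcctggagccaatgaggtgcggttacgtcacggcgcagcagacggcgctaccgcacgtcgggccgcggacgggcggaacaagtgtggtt

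With 2 libraries a group an exact permutation test cannot go below p 0.333, and each result rests on the dispersion shared over genes. This holds most with the lane block, where the 4 libraries of a comparison also fit a lane term. In AGE+LPS against LPS, for example, mt-Nd1 had log2 ratios of 0.183 and 0.623 in the lanes and still an SE of 0.109. The counts are of bulk RNA, so less RNA per cell and fewer cells that express a gene cannot be told apart. mRNA shares say nothing about the amount or the activity of a complex. Library size scaling instead of TMM moved the median of all genes in LPS against control to −0.40. Replicate and lane share the same labels, so the block removes both together.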

How the data were processed

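RNA from 8 libraries of BV-2 cells was measured by RNA-Seq, after poly-A selection according to the paper. Per the labels, the authors aligned reads to GRCm38, and the deposited table holds counts per gene from featureCounts. Strandedness, annotation release and the handling of reads that map to several places are not stated.

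Counts were tested with edgeR 4.0.16 in R 4.3.3 (filterByExpr, TMM, quasi-likelihood F-test, Benjamini-Hochberg over all genes tested), on the 4 libraries of each comparison. A gene was called at an adjusted p below 0.05. CPM are TMM-normalized over the 8 libraries. Genes were matched to GENCODE annotation of GRCm38 (45229 of 46078), and figures were drawn with Python 3.11.15 and matplotlib 3.10.9. The scripts were tested on simulated data. Nothing beyond the design's words on biological replicates says that they came from separate cultures. Without molecular identifiers, counting error is the only error a floor covers; 3 counts are 0.249 CPM in the largest library and 1.11 CPM in the smallest.

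The labels mark a shared lane, so the replicate number can pair libraries. To check this pairing, the log2 ratio of replicate 2 to replicate 1 was correlated over 12873 genes for each pair of groups. The lowest r was 0.291, for control with FruArg+LPS, and the highest 0.679, for LPS with AGE+LPS. The block was an alternative fit and not the main one. Other alternatives were DESeq2 1.42.0, RLE size factors, library size scaling, library sizes without mt- genes, other count filters, the 4 groups in one fit, corrections for length and GC, and each library left out. In a fit with 1 library left out, the lone library is taken to vary like the other group.

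Members and lists were chosen with earlier results of these data known. Named genes were the mtDNA genes, Sdha to Sdhd, Cycs, isoform sets, the 2 largest increases and decreases of complexes I, III, IV and V with a mean of at least 5 CPM, members under the DEG rule with or without the block, the largest changes of each list, and AA467197, Cyc1, Ppargc1a, Ppargc1b, Tfam and Ucp2. Genes named in the report beyond this rule were chosen after their values were seen.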

Additional observations from a re-analysis of the deposited data

How the results depend on the processing

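The count of members called depended on the fit. In LPS against control, 1 member was higher without the block and 3 with the replicate block, 3 with the block in the 4 groups fit, 3 with the block and length correction and 4 with the block and GC correction. It was 0 with RLE size factors, library size scaling, DESeq2 or the 4 groups in one fit, and 0 to 2 with a library left out (0 without control replicate 1, 2 without LPS replicate 2). Lower members were 12 without the block, 35 with the replicate block, 35 with it in the 4 groups fit, 37 with length and 38 with GC correction. They were 51 with library size scaling, 4 with an absolute log2 fold change of 1 or more, and 3 to 20 with a library left out (3 without control replicate 2, 20 without LPS replicate 2). Library size scaling moved the median of all genes from 0.02 to −0.40, and the calls among all genes from 2106 higher and 1839 lower to 1236 and 3705. It moved that median to 0.15 in AGE+LPS against LPS and to −0.15 in FruArg+LPS against AGE+LPS.

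In AGE+LPS against LPS, 0.292% of all genes were higher without the block, 1.11% with DESeq2 and 2.37% with genes of at least 1 count. The first share is over 12317 genes, and those of DESeq2 and of genes with at least 1 count are over 21850. The 4 groups in one fit gave 1.46% and the replicate block 19.3%. The block gave 8.44% in the 4 groups fit, 18.9% with length and 19.3% with GC correction. Of all genes 0.503% were lower without the block and 21.0% with it. With the block 9.8% were lower in the 4 groups fit, 21.6% with length and 21.3% with GC correction. Of members, 1 was higher in the fit without the block, 6 with DESeq2, 9 with genes of at least 1 count, 3 with the 4 groups in one fit and 43 with the replicate block. The block gave 17 in the 4 groups fit, 40 with length and 45 with GC correction, and a library left out gave 2 to 5 (2 without AGE+LPS replicate 2, 5 without LPS replicate 2). Lower members were 0, then 1 with genes of at least 1 count, 1 with the replicate block, 1 with it in the 4 groups fit, 2 with length and 2 with GC correction, and 0 to 1 with a library left out (1 without AGE+LPS replicate 2). The sign of some small values turned with a library left out. Cox8a ranged from −0.0603 without AGE+LPS replicate 1 to 0.58 without LPS replicate 1, and was −0.05 without LPS replicate 2. mt-Nd1 ranged from −0.53 without AGE+LPS replicate 2 to 1.22 without LPS replicate 2. mt-Nd4 ranged from −0.55 to 1.15 in the same fits, and was −0.12 without LPS replicate 1. Uqcc3 lost its call with length correction (adjusted p 0.0523).

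In FruArg+LPS against LPS, 0 members were higher by edgeR without the block, with 16 at an unadjusted p below 0.05, 2 with DESeq2, 2 with genes of at least 1 count and 19 with the replicate block. The block gave 18 in the 4 groups fit, 18 with length and 17 with GC correction, and a library left out gave 0 to 6 (6 without FruArg+LPS replicate 2). Lower members were 1 with the replicate block, 2 with it in the 4 groups fit, 1 with it and length correction and 0 with it and GC correction. In FruArg+LPS against AGE+LPS, the replicate block gave 2 higher, 2 in the 4 groups fit, 2 with length and 4 with GC correction, and 1, 1, 3 and 2 lower. The block took away no call of a member made without it, and the calls of members it added are all in these counts. The cause of the difference between fits was not tested.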
